A study of Mus musculus with 32 samples.

Results

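Outside the clock itself, 5 named genes had the largest mean difference over 3 library preparations between the lungs of wild-type (WT) and Bmal1 knockout (KO) mice. Tex11, Slc13a4 and Gkn3 were lower in KO, and Crabp1 and Snx31 were higher. They are 5 of the 41687 rows of the deposited table, and all 5 matched by Ensembl gene ID. They were selected on the same libraries described here. The rule took symbol-bearing genes outside the clock whose KO difference passed edgeR's test in all 3 preparations with 1 sign, kept those whose genotypes did not overlap, and ranked them by the mean absolute log2 fold change. The KO difference of the members is therefore given as a description, without a test.

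Of 15793 rows tested in all 3 preparations, 195 were called in all 3 with 1 sign, and 135 of these had no overlap. Gkn3 was the last gene inside the rule, with a mean absolute log2 fold change of 2.73. Just outside stood Sv2c at 2.44, whose genotypes overlapped in a preparation, and Nnat at 2.30. In NoSelect alone Sv2c differed by 3.16, more than Snx31 and Gkn3. The clock genes Nr1d1 and Nr1d2 were left out by the rule, as were ENSMUST00000093344 at 14.10 and ENSMUST00000181988 at 3.04, which carry no symbol.

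BMAL1 is a transcription factor that pairs with CLOCK, binds E-box sequences and drives the rhythmic expression of clock repressors and of many output genes. REV-ERB and ROR receptors act on a half-site written AGGTCA, and the PAR bZIP factors and NFIL3 act on D-boxes, so loss of BMAL1 can reach genes that it does not bind. The 5 genes belong to unrelated families. TEX11 is an X-linked meiotic protein needed for crossing over in male germ cells. SLC13A4 is a sodium-coupled sulfate carrier best known from placenta and choroid plexus. Gastrokines are secreted BRICHOS-domain proteins of the stomach lining, and Gkn3 is also known as a marker of arterial endothelium in mice. CRABP1 binds retinoic acid in the cytosol. SNX31 is a PX-FERM sorting nexin of endosomes, known from the bladder lining, where it binds uroplakins.

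The study took lungs of 12 adult mice aged 8 to 18 weeks, 6 WT C57b/6 and 6 Bmal1 knock-outs, all labelled female. The labels do not say how the Bmal1 allele was made, in which cells it is lost or at what time of day lungs were taken. RNA of all 12 mice was sequenced after pull-down of ribosomal RNA (RiboZero) and after selection of polyadenylated RNA (PolyA), n = 6 per genotype. RNA of mice 3 to 6 of each genotype was also sequenced with neither step (NoSelect, n = 4 per genotype). RiboZero and PolyA used 200 ng of RNA and NoSelect 15 ng, which gave 32 libraries with total counts of 11638594 to 25801237, 29924325 to 41548830 and 74979802 to 115059756, respectively.

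A few libraries go against their labels. The NoSelect library of KO mouse 6 is labelled liver. Its 10 liver markers summed to 79.6 CPM (counts after scaling for library size), within the 63.5 to 230 of the 7 other NoSelect libraries, and its 7 alveolar type 2 markers summed to 10300 CPM against 7340 to 10300. Trf made up most of the liver sums, with a mean of 107 CPM in NoSelect WT and 68.7 in KO. The median liver sum was 73.2 CPM in NoSelect WT and 75.1 in KO. Alb and Apoa1 had at most 42 and 10 counts in any of the 32 libraries. The 3 libraries of KO mouse 6 held 2 to 16 counts of Xist and 2195 to 2967 of the Y-linked Ddx3y, where the 29 other libraries held 13590 to 52858 and 0. This mouse was kept, and values without it are given. Arntl, the gene of BMAL1, stood at 30.9 ± 2.9 CPM in WT and 17.4 ± 1.31 in KO in RiboZero (SD, n = 6 each), 21.9 ± 1.82 and 18.6 ± 1.48 in PolyA, where the genotypes overlapped, and 28.7 ± 0.853 and 17.8 ± 0.96 in NoSelect (SD, n = 4 each).

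All levels are CPM on 1 scale set by TMM over the 32 libraries. TMM takes most rows as unchanged, whereas most rows differed between PolyA and the other preparations. Its factors ran from 1.21 to 1.31 in RiboZero, 1.5 to 1.66 in PolyA and 0.312 to 0.37 in NoSelect. Levels of 2 preparations therefore compare only relative to this scale. On this scale 1 count was worth 0.0295 to 0.0712 CPM in RiboZero, 0.0158 to 0.0209 in PolyA and 0.0244 to 0.04 in NoSelect. In the GRCm38 build with GENCODE M21, Tex11 (ENSMUSG00000009670) lies on chromosome X from 100838648 to 101059667 on the minus strand, and it overlaps 3 short genes on the opposite strand. Slc13a4 (ENSMUSG00000029843) lies on chromosome 6 from 35267957 to 35308131 and Gkn3 (ENSMUSG00000030048) on chromosome 6 from 87383256 to 87388935, both on the minus strand. Crabp1 (ENSMUSG00000032291) lies on chromosome 9 from 54764748 to 54773110 on the plus strand. Snx31 (ENSMUSG00000013611) lies on chromosome 15 from 36504062 to 36555573 on the minus strand. All 5 are protein-coding. Of the 31-base words of their transcripts, 1.73% in Slc13a4 (78 of 4498) also occurred in another gene, and 0 in the other 4.

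Promoters are shown because 2 genes that fell and 1 that rose can be read against the motifs through which the clock is known to act. RefSeq's table (GRCm38.p6) held the 250 bases before and 50 after the start of 3 of the 5 genes, Slc13a4, Gkn3 and Crabp1. Tex11 and Snx31 were not matched. They are printed 5′ to 3′ on the gene's strand, and capitals mark matches, on either strand, to the E-box CACGTG, the half-site AGGTCA, the D-box TTATGTAA or TTACGTAA, the CCAAT box CCAAT, the TATA box TATAAA and the GC box GGGCGG. Of these motifs, none overlapped another in the 3 windows.
Slc13a4 (chr6:35308077-35308376, minus strand): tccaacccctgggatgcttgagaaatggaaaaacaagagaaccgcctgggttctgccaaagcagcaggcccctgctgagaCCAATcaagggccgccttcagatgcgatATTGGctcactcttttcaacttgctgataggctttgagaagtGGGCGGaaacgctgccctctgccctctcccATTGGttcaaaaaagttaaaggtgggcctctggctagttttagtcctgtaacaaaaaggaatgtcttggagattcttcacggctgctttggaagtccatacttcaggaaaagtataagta
Gkn3 (chr6:87388886-87389185, minus strand): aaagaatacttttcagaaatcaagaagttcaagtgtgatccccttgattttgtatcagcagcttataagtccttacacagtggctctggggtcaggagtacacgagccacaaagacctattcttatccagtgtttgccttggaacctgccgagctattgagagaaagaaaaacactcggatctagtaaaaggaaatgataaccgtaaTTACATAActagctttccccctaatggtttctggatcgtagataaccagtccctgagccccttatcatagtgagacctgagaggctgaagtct
Crabp1 (chr9:54764498-54764797, plus strand): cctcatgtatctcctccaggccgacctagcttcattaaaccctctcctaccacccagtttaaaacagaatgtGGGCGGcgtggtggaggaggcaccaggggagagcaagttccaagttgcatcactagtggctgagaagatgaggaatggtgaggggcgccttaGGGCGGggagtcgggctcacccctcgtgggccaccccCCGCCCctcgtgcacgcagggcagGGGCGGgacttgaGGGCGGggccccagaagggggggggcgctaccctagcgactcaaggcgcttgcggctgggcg

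None of the 3 windows held the E-box CACGTG, which 7.15% of the 32851 promoters of the table hold, nor the half-site AGGTCA, which 16.3% hold. Gkn3 held a D-box, read on its own strand as TTACATAA, the reverse complement of TTATGTAA, starting 43 bases before the start. A D-box is in 1.06% of the promoters. Slc13a4 held 3 CCAAT boxes (37.4% of promoters hold at least 1) and 1 GC box, and Crabp1 held 5 GC boxes (35.7% of promoters hold at least 1). TATAAA, found in 13.6% of promoters, was in none of the 3. G and C made up 48.7% of the Slc13a4 window, 42.7% of the Gkn3 window and 65.0% of the Crabp1 window, against a median of 52.7%. A match describes these letters only.

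Tex11 had the largest fitted KO difference of the 5 in RiboZero and NoSelect, and Crabp1 had it in PolyA. In RiboZero its WT libraries lay at 0.735, 0.928 and 1.23 CPM (lowest, median, highest), and its KO libraries at 0, 0.0218 and 0.118. In PolyA the WT values were 0.537, 0.774 and 0.822 CPM and the KO values 0.0182, 0.045 and 0.137. In NoSelect the 4 WT libraries, given here and later in the order of mice 3 to 6, held 0.795, 0.792, 0.878 and 0.631 CPM and the 4 KO libraries 0, 0.0698, 0 and 0.0489. Every WT library was above every KO library in all 3 preparations, and the nearest ones were 6.22-fold apart in RiboZero, 3.92-fold in PolyA and 9.03-fold in NoSelect as listed. Overlap was also absent for the other 4 members, as the rule required. For scale, genotypes did not overlap in 2.89% of all rows tested in RiboZero, 3.32% in PolyA and 9.48% in NoSelect.

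These levels rest on few reads. Tex11 had 16 to 33 counts per WT library in RiboZero and 0 to 4 per KO library. A library at 0 allows up to 3 counts, worth 0.108 to 0.213 CPM in the 3 RiboZero KO libraries at 0 and 0.117 to 0.12 in the 2 of NoSelect. Summed over libraries, 147 WT counts stood against 8 in KO in RiboZero, a scaled ratio of 18.3 with a 95% exact counting interval of 9.03 to 43.1. The ratio was 12.5 (7.82 to 21.1) in PolyA and 23.3 (8.81 to 87.2) in NoSelect. The fitted log2 fold changes, which for so few KO counts depend on the prior count, were -4.09 (SE 0.472), -3.62 (SE 0.349) and -4.40 (SE 0.504). With mice 3 to 6 alone, those of NoSelect, the RiboZero value was -5.82 (SE 0.587). As in any bulk sample, fewer cells of a type and less RNA per cell cannot be told apart.

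Slc13a4 was the most read of the 3 genes that were lower in KO. Its WT libraries lay at 2.46, 3.0 and 3.42 CPM in RiboZero and its KO libraries at 0.18, 0.437 and 0.543. In PolyA they lay at 1.24, 2.23 and 2.53 CPM in WT and 0.145, 0.291 and 0.745 in KO. The NoSelect values were 3.24, 2.45, 3.92 and 2.62 CPM in WT and 0.28, 0.21, 0.544 and 0.22 in KO. The nearest WT and KO libraries were 4.53-fold apart in RiboZero and 4.5-fold in NoSelect but only 1.66-fold in PolyA, because KO mouse 2 was high there and WT libraries spread down to 1.24. The log2 fold change was -2.89 (SE 0.209) in RiboZero, -2.57 (SE 0.346) in PolyA and -3.31 (SE 0.315) in NoSelect, which left KO at 13.4%, 16.8% and 10.1% of WT. With mice 3 to 6 alone the PolyA value was -3.33 (SE 0.234).

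Gkn3 in WT ran from 0.555 over a median of 0.80 to 1.15 CPM in RiboZero, and in KO from 0 over 0.103 to 0.162. In PolyA it ran from 0.879 over 1.18 to 1.4 CPM in WT and from 0.0895 over 0.217 to 0.273 in KO. In NoSelect the WT libraries held 0.454, 1.01, 0.941 and 0.883 CPM and the KO libraries 0.08, 0.14, 0.117 and 0.147. WT mouse 3 was the low WT library of NoSelect, still 3.10-fold above the highest KO library. The log2 fold change was -2.94 (SE 0.333), -2.56 (SE 0.225) and -2.69 (SE 0.342) in RiboZero, PolyA and NoSelect. The summed counts of KO were 16, 67 and 15, so PolyA, with 387 WT counts, measured this gene with the narrowest counting interval, 4.49 to 7.68 around a ratio of 5.83.

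Crabp1 was near the detection limit in WT and well read in KO. In RiboZero its WT libraries lay at 0.149, 0.263 and 0.389 CPM and its KO libraries at 1.79, 3.29 and 4.53. In PolyA the values were 0.235, 0.299 and 0.415 CPM in WT and 2.55, 4.33 and 6.07 in KO. In NoSelect they were 0.256, 0.252, 0.439 and 0.221 CPM in WT and 2.44, 3.18, 3.85 and 1.71 in KO. KO libraries were all above WT libraries, by at least 3.9-fold between the nearest ones. The log2 fold change was 3.55 (SE 0.256), 3.83 (SE 0.251) and 3.23 (SE 0.327), and the ratio of summed counts was 14.5 in PolyA (95% exact interval 11.9 to 18.0, 1469 counts against 100).

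Snx31 was read in all 32 libraries, with at least 10 counts in 31 of them. Its WT libraries lay at 0.381, 0.548 and 0.778 CPM in RiboZero and its KO libraries at 2.92, 4.87 and 6.65. In PolyA they lay at 0.669, 1.04 and 1.15 CPM in WT and 4.23, 6.83 and 8.63 in KO. The NoSelect values were 0.483, 0.612, 0.439 and 0.442 CPM in WT and 4.04, 5.06, 4.74 and 3.08 in KO. The nearest WT and KO libraries differed by 3.68-fold in PolyA, 3.76-fold in RiboZero and 5.03-fold in NoSelect. The log2 fold change was 3.16 (SE 0.214), 2.78 (SE 0.193) and 3.09 (SE 0.206).

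**Figure D1:**
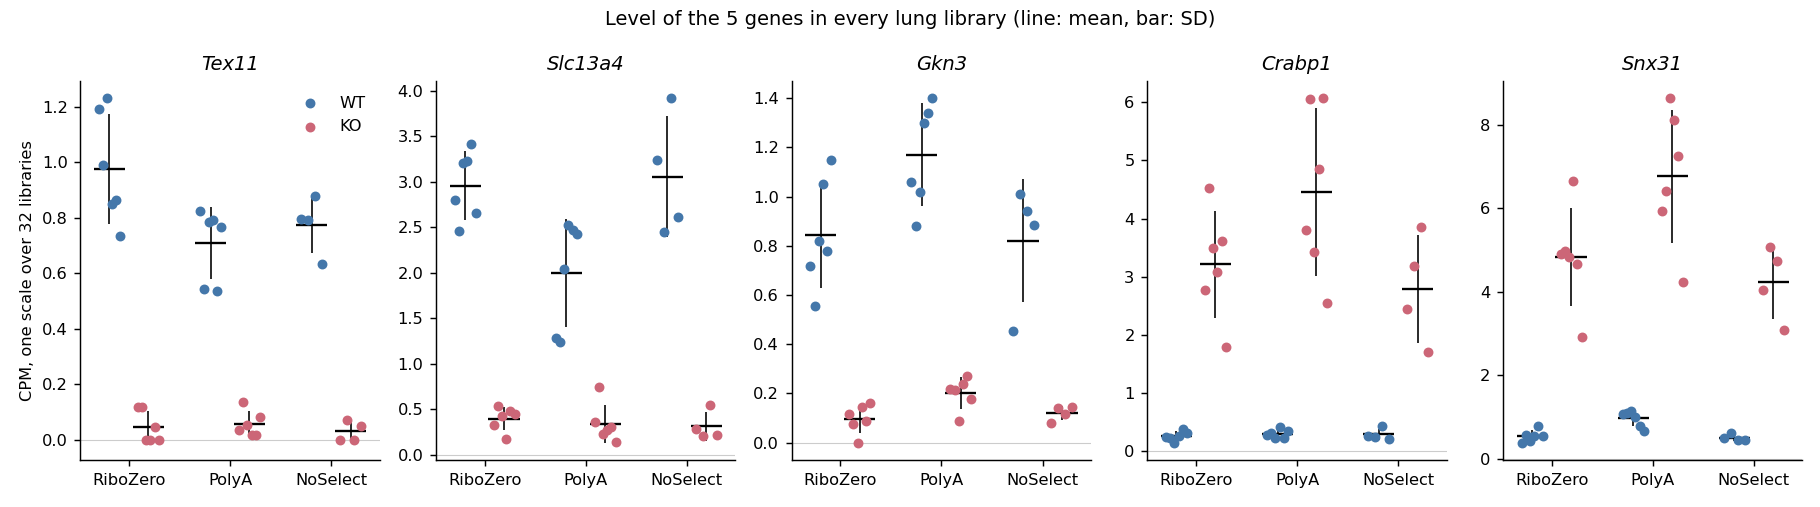
Level of each gene in CPM (linear axis, 1 scale over 32 libraries) by preparation, with a point per library, blue for WT and red for KO, a line at the mean and a bar of 1 SD. On these axes Tex11, Slc13a4 and Gkn3 are low in KO, and Crabp1 and Snx31 are low in WT. Low is relative to the gene's other genotype, since Snx31 had 35 to 68 counts per PolyA WT library.

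**Figure D2:**
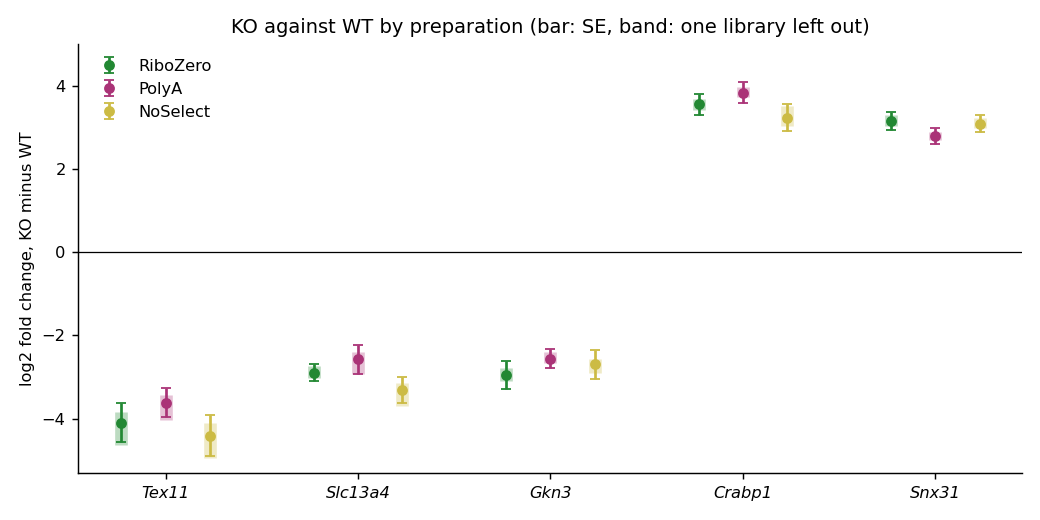
Log2 fold change of KO against WT for each gene and preparation, with a bar of 1 SE and a pale band for the range with each library left out in turn. Tex11 ranges most, from -4.63 to -3.83 in RiboZero and from -4.95 to -4.09 in NoSelect.

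Per kilobase of exon in PolyA, Crabp1 and Snx31 stood below Gkn3 and Slc13a4 in WT and above them in KO. Tex11 was last in both genotypes of PolyA. The genes were chosen by their KO difference, which makes such a change of order likely in advance. In PolyA WT libraries Gkn3 was highest at 1.36 CPM per kilobase, followed by Slc13a4 at 0.441, Crabp1 at 0.38, Snx31 at 0.328 and Tex11 at 0.195. In WT libraries of the other preparations Snx31 was below Tex11, at 0.183 against 0.269 in RiboZero and 0.168 against 0.214 in NoSelect. In PolyA KO libraries Crabp1 led at 5.56 CPM per kilobase, followed by Snx31 at 2.30, Gkn3 at 0.235, Slc13a4 at 0.0761 and Tex11 at 0.0158. Among 22743 genes with a count in the PolyA KO libraries, Crabp1 stood at the 75.1 percentile of this level and Tex11 at the 14.8 percentile. In WT, Crabp1 stood at the 38.7 percentile of 22803. No member was an abundant transcript of the lung in either genotype.

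In KO, where Crabp1 and Snx31 were well read, their spread between mice was larger than counting alone gives. In PolyA KO libraries the coefficient of variation was 32.4% for Crabp1 and 23.6% for Snx31, where counting alone gives 6.36% and 5.16%. In WT it was nearer the counting level, 22.6% against 24.5% for Crabp1 and 19.7% against 13.8% for Snx31 in PolyA, and 29.9% against 38.6% and 26.2% against 27.4% in RiboZero. The spread of Tex11 in WT was near the counting level, 20.3% against 20.3% in RiboZero and 18.4% against 16.1% in PolyA, and 13.4% against 20.3% in NoSelect. Slc13a4 in PolyA varied by 29.9% in WT and 60.8% in KO, against counting levels of 9.57% and 22.9%.

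**Figure D3:**
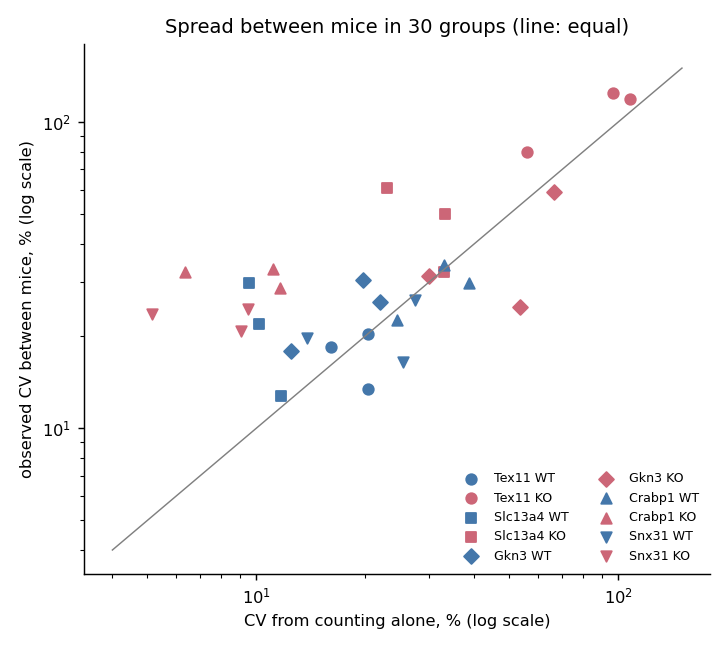
Observed coefficient of variation between mice (%) against the value that counting alone gives (%), both on log axes, for 5 genes in 6 groups each; blue is WT, red is KO and the line marks equality. The 6 KO groups of Crabp1 and Snx31 and the Slc13a4 groups of PolyA lie above the line, while Tex11 and Gkn3 groups lie on both sides of it.

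KO mouse 6 was the lowest KO mouse for both Crabp1 and Snx31 in each of the 3 preparations. Its Crabp1 levels were 1.79, 2.55 and 1.71 CPM in RiboZero, PolyA and NoSelect, and its Snx31 levels 2.92, 4.23 and 3.08. The next KO library stood at 2.78, 3.42 and 2.44 CPM for Crabp1 and at 4.67, 5.94 and 4.04 for Snx31. This is the mouse with male-typical counts of sex-linked genes, and the part of sex in these levels was not tested. Without it the log2 fold changes were 3.68, 3.96 and 3.41 for Crabp1 and 3.27, 2.89 and 3.22 for Snx31. In the same order, they were -3.86, -3.74 and -4.73 for Tex11, -2.93, -2.40 and -3.14 for Slc13a4, and -3.10, -2.51 and -2.81 for Gkn3.

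**Figure D4:**
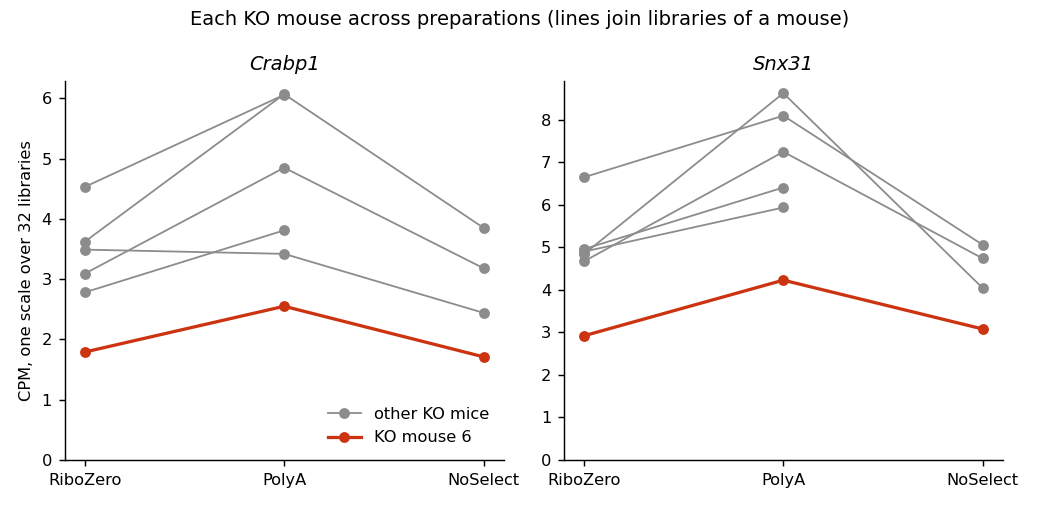
Levels of Crabp1 and Snx31 in CPM in each KO mouse across preparations, with lines joining the libraries of a mouse and KO mouse 6 in red. The red line is the lowest in both panels, at 1.79, 2.55 and 1.71 CPM for Crabp1 and 2.92, 4.23 and 3.08 for Snx31.

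Whether a mouse that was high in RiboZero was also high in PolyA was examined within each genotype over 6 mice by two-sided exact permutation tests, which gave 10 relations. The largest was Crabp1 in KO, with a Pearson r of 0.843 (permutation p 0.0389, adjusted 0.236) and a Spearman rho of 0.771 (permutation p 0.103, adjusted 0.454). Next was Gkn3 in WT, with r of 0.834 (permutation p 0.0472, adjusted 0.236) and rho of 0.714 (permutation p 0.136, adjusted 0.454). Without the 2 mice farthest from the median in RiboZero, r fell to 0.382 and 0.465. Leaving out these mice narrows the range, so a fall cannot show that the relations rest on them. In the same step r rose from 0.235 to 0.903 for Slc13a4 in KO and from 0.185 to 0.385 for Crabp1 in WT. Snx31 gave r of 0.829 in KO (permutation p 0.114, adjusted 0.38; rho 0.371, permutation p 0.497, adjusted 0.823), which became -0.442 without the 2 farthest mice. In WT it gave -0.613 (permutation p 0.256, adjusted 0.468; rho -0.429, permutation p 0.419, adjusted 0.823). None of the 10 relations passed an adjusted p of 0.05.

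The rule did not rank the genes by their difference between preparations. It did require each gene to be tested and called in all 3. A gene poorly recovered in 1 preparation could thus not become a member, so shares of members and of all rows are not like for like. The question was whether the scaled level of a transcript was the same with and without selection of polyadenylated RNA. Recovery in absolute terms was not measured. Both genotypes entered each fit with genotype as a covariate. Preparations differed broadly, since 81.8% of rows passed an adjusted p of 0.05 between PolyA and RiboZero, 80.3% between PolyA and NoSelect and 47.3% between RiboZero and NoSelect. Of the members, 2 of 5 passed between PolyA and RiboZero, 3 of 5 between PolyA and NoSelect, and 0 of the 3 tested between RiboZero and NoSelect. Libraries of 1 mouse deviated together across preparations, so the mouse is a true pairing. The fit with genotype leaves this pairing out and treats libraries of 1 mouse as independent. With the mouse in place of genotype as a block, 4 of 5, 4 of 5 and 0 of 3 passed. DESeq2 called 3, 2 and 0, and the last comparison also had 0 at an unadjusted p under 0.05 in edgeR. The shares of all rows above belong to edgeR with genotype, so the block and DESeq2 counts have no share beside them.

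After scaling, Snx31 and Gkn3 had higher levels in PolyA. The median over all rows tested was 0.07 against RiboZero and 0.08 against NoSelect. Snx31 was higher in PolyA than in RiboZero by a log2 of 0.62 (SE 0.142, adjusted p 0.000299 in edgeR's quasi-likelihood test) and higher than in NoSelect by 0.81 (SE 0.146, adjusted p 3.95e-05). Gkn3 was higher by 0.59 (SE 0.186, adjusted p 0.00528 in edgeR) and 0.60 (SE 0.19, adjusted p 0.00732). Both genes passed with each of the 12 mice left out in turn.

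The calls of Crabp1 and Slc13a4 depended on the model, above all on whether the pairing by mouse entered it. With the mouse as a block both genes passed in both PolyA comparisons. Crabp1 was higher in PolyA than in RiboZero by 0.36 (SE 0.171, adjusted p 0.0537 in edgeR), and by 0.40 (SE 0.0991, adjusted p 0.00126) once each mouse was a block. Against NoSelect it was higher by 0.46 (SE 0.208, adjusted p 0.0492 in edgeR). That call, from the fit with genotype, was lost with 11 of the 12 mice left out, each in turn. With the block Crabp1 was higher by 0.46 (SE 0.138, adjusted p 0.00793). Mice were not left out in the fit with the block, so the losses do not bear on the paired call. Slc13a4 was the only member lower in PolyA with a call in any paired fit. Its difference from RiboZero was -0.43 (SE 0.204, adjusted p 0.0543 in edgeR) and -0.50 (SE 0.149, adjusted p 0.0048) with that block. From NoSelect it was -0.30 (SE 0.258, adjusted p 0.288) and -0.33 (SE 0.137, adjusted p 0.0397) with the block.

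Tex11 gave no call in either of its comparisons, with -0.35 (SE 0.266, adjusted p 0.221 in edgeR) between PolyA and RiboZero and 0.05 (SE 0.275, adjusted p 0.861) between PolyA and NoSelect. With the mouse as a block it stood at -0.39 (SE 0.205, adjusted p 0.087 in edgeR) and -0.02 (SE 0.241, adjusted p 0.941). Between RiboZero and NoSelect the log2 difference was 0.09 for Slc13a4 (SE 0.176, adjusted p 0.943 in edgeR), 0.09 for Crabp1 (SE 0.2, adjusted p 0.746) and 0.16 for Snx31 (SE 0.147, adjusted p 0.396). Tex11 and Gkn3 did not pass the filter on low counts in that pair. Tex11 passed against RiboZero in the WT libraries alone, at -0.48 (adjusted p 0.0242).

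**Figure D5:**
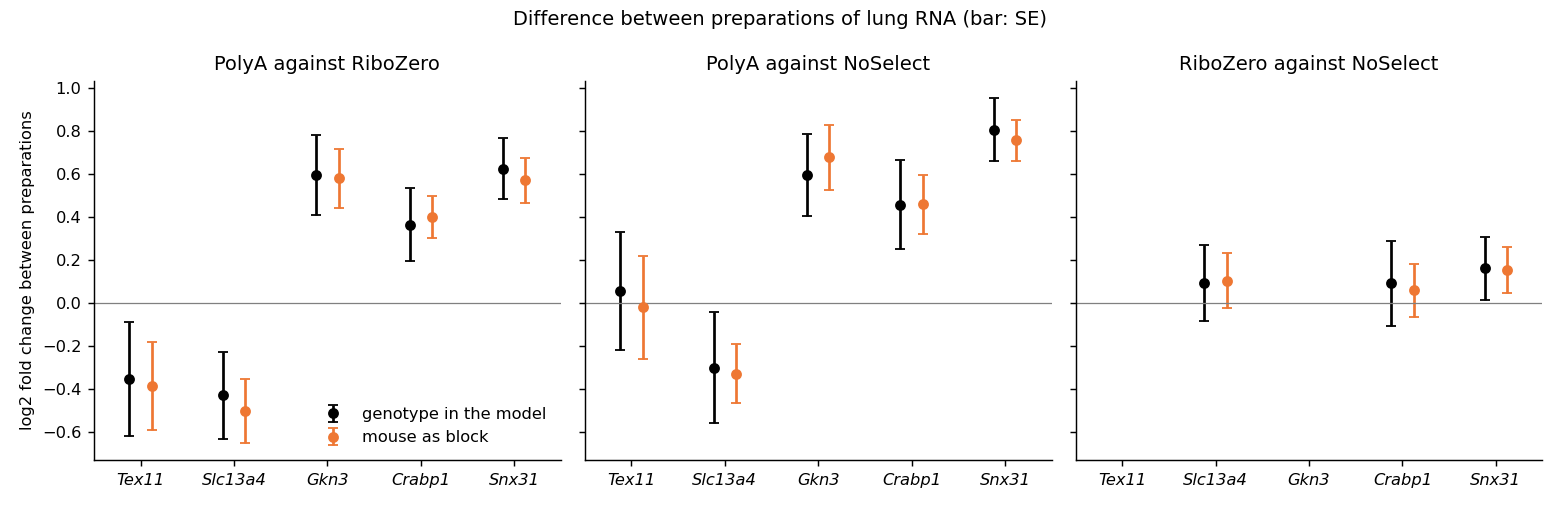
Log2 difference between preparations for each gene, with a bar of 1 SE, black for the fit with genotype and orange for the fit with the mouse as a block. Gkn3, Crabp1 and Snx31 lie above 0 in both PolyA panels, Slc13a4 lies below, and the right panel has 3 genes near 0.

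The pathways around the members were then read from lists of related genes. The share of all tested rows that edgeR called between KO and WT was 3.46% in RiboZero, 4.03% in PolyA and 2.17% in NoSelect. DESeq2 called more rows, 976, 1355 and 878 against 579, 694 and 372 in edgeR, so its list counts have a higher background. The share of all rows with an unadjusted p under 0.05 is not given, so list counts of that kind have no background beside them. Against the meiotic role of Tex11, 27 germ-cell genes were in the table, and 10, 14 and 10 passed the filter in RiboZero, PolyA and NoSelect. In edgeR 0 of them were called in any preparation, 1, 1 and 0 had an unadjusted p under 0.05, and DESeq2 called 0, 1 and 0. Their median log2 fold change was 0.12, -0.03 and 0.06, where the medians over all rows tested ran from -0.0029 to 0.0005. Testis markers were at or near 0. Tnp1, a sperm chromatin protein, had 0 counts in all libraries, and Prm1 had at most 1 count in a library. In mice labelled female, sperm transcripts at or near 0 say little about Tex11. Genes of the germ-cell list went both ways. Tex15 and Rec8 had counts in all 32 libraries, up to 723 and 945 in a library, and Tex12 and Syce3 had at most 1 count. A link of Tex11 in lung to germ-cell genes was not tested.

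Around Slc13a4, 10 of 13 carriers and sulfate-handling genes were tested. In RiboZero 2 were higher in KO, Papss2, which makes the activated sulfate donor, by 0.43 (SE 0.059, adjusted p 0.00142 in edgeR), and the sulfite oxidase gene Suox by 0.26 (SE 0.0591, adjusted p 0.0319). In PolyA and NoSelect 0 were called in edgeR, 4 and 2 had an unadjusted p under 0.05, and DESeq2 called 2 and 1. The list medians were 0.12, 0.12 and 0.13. The related carrier Slc13a2 stood at 1.44 (SE 0.447, adjusted p 0.109 in edgeR) in RiboZero and 1.4 (SE 0.385, adjusted p 0.0645) in PolyA and 0.85 (SE 0.394, adjusted p 0.35) in NoSelect, without a call. The carrier Slc13a3 stood at -0.17 (SE 0.179, adjusted p 0.696 in edgeR), -0.56 (SE 0.155, adjusted p 0.0645) and -0.67 (SE 0.175, adjusted p 0.105), also without a call.

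Around Gkn3, the neighbouring gastrokine Gkn1 had 0 counts in all libraries and Gkn2 at most 1 count in a library. Pepsinogen C (Pgc) was lower in KO, by -0.99 (SE 0.211, adjusted p 0.0206 in edgeR) in RiboZero and -1.01 (SE 0.206, adjusted p 0.0457) in NoSelect, and stood at -0.61 (SE 0.191, adjusted p 0.105) in PolyA. It was the single call among the 3 tested stomach genes, with list medians of -0.52, -0.52 and -0.74, and in PolyA, where edgeR called 0, 2 had an unadjusted p under 0.05 and DESeq2 called 1. Pgc is also made by alveolar type 2 cells. Their surfactant gene Sftpa1 stood at -0.49 (adjusted p 0.00776 in edgeR), -0.66 (0.00457) and -0.57 (0.0178), and 1, 3 and 2 of 7 alveolar type 2 markers were called in RiboZero, PolyA and NoSelect, all lower. Sftpd stood at -0.48 (adjusted p 0.0576 in edgeR), -0.50 (0.038) and -0.59 (0.0255). Abca3 stood at 0.07, 0.05 and 0.10 and Sftpc at -0.07, -0.13 and -0.08, without a call. Summed, these markers ran from 8290 to 10800 CPM in WT and 7330 to 10300 in KO in RiboZero, 11500 to 15800 and 10100 to 14800 in PolyA, and 8650 to 10300 and 7340 to 10300 in NoSelect. Their part in the Pgc difference was not tested.

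Arterial endothelium was examined because Gkn3 marks it. The 10 arterial markers summed to 586 to 678 CPM in WT and 561 to 721 in KO in RiboZero, 547 to 664 and 618 to 696 in PolyA, and 650 to 709 and 662 to 738 in NoSelect. Of the 10, 1 was called in RiboZero, the vasoconstrictor gene Edn1, higher in KO by 0.76 (SE 0.191, adjusted p 0.0475 in edgeR). In PolyA and NoSelect 0 were called, 3 and 2 had an unadjusted p under 0.05, and DESeq2 called 2 and 0. The arterial connexin Gja5 stood at 41.1 CPM in WT and 39.1 in KO in RiboZero. The summed arterial levels of KO and WT overlapped in every preparation. The 8 pan-endothelial markers summed to 2100 to 2470 CPM in WT and 2390 to 2900 in KO in RiboZero. They summed to 1640 to 2120 and 2030 to 2280 in PolyA, and to 2200 to 2470 and 2500 to 2830 in NoSelect, without overlap there. Their median log2 fold changes were 0.16, 0.14 and 0.15. In edgeR 0 were called, 3, 2 and 3 had an unadjusted p under 0.05, and DESeq2 called 0, 1 and 1. The part of arterial or other endothelium in the Gkn3 difference was not tested.

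Around Crabp1, 19, 21 and 20 of 24 retinoid genes were tested in RiboZero, PolyA and NoSelect. In RiboZero 1 was called, Lrat, which stores retinol as esters, lower by -1.18 (SE 0.289, adjusted p 0.0423 in edgeR). Lrat stood at -1.08 (SE 0.341, adjusted p 0.107) in PolyA and -1.31 (SE 0.408, adjusted p 0.163) in NoSelect. In these 2 preparations 0 retinoid genes were called in edgeR, 3 and 4 had an unadjusted p under 0.05, and DESeq2 called 2 and 1. The list medians were 0.02, -0.02 and -0.01. The paralogue Crabp2 had at most 7 counts in a library and was not tested.

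Around Snx31, 2, 3 and 3 of 13 sorting nexin, retriever and uroplakin genes were called in RiboZero, PolyA and NoSelect, all higher in KO, with list medians of 0.09, 0.11 and 0.15. The retriever subunit Vps35l was called in all 3, by 0.22 (SE 0.0431, adjusted p 0.0158 in edgeR), 0.21 (SE 0.0364, adjusted p 0.00689) and 0.24 (SE 0.0476, adjusted p 0.0395). The uroplakin Upk1b, also a mesothelial marker, rose by 0.68 (SE 0.121, adjusted p 0.0077) in RiboZero and 0.50 (SE 0.1, adjusted p 0.0447) in NoSelect, and stood at 0.56 (adjusted p 0.103) in PolyA. Upk1a rose by 0.78 (SE 0.175, adjusted p 0.0275) in PolyA and 0.97 (SE 0.185, adjusted p 0.037) in NoSelect, and stood at 0.58 (adjusted p 0.175) in RiboZero. Upk3a rose by 1.53 (SE 0.258, adjusted p 0.00539) in PolyA, and stood at 1.34 (adjusted p 0.112) in RiboZero and 1.31 (adjusted p 0.229) in NoSelect. Summed mesothelial markers ran from 73.6 to 138 CPM in WT and 65.2 to 110 in KO in RiboZero, 110 to 263 and 83.6 to 164 in PolyA, and 77.9 to 130 and 62.2 to 83.8 in NoSelect. The mesothelial Upk3b stood at -0.30 in RiboZero (SE 0.235, adjusted p 0.593). The 4 bladder markers, Upk1a, Upk2, Upk3a and Krt20, summed to 1.15 to 2.16 CPM in WT and 2.21 to 3.58 in KO in RiboZero, 3.12 to 5.82 and 5.62 to 9.67 in PolyA, and 1.83 to 2.63 and 3.69 to 4.92 in NoSelect. These sums rest on the uroplakins, which are also in the list around Snx31. Krt20 was too low to test. Its mean was 0.0805 CPM in WT and 0.0322 in KO in RiboZero, 0.156 and 0.0801 in PolyA, and 0.0471 and 0.0698 in NoSelect. The part of bladder-type or mesothelial cells in the Snx31 difference was not tested. The other PX-FERM nexins Snx17 and Snx27 stood at 0.06 and 0.10 in RiboZero, without a call.

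On the chromosome, the 3 nearest tested genes on each side of the members gave 30 rows. In edgeR 1, 1 and 0 of the 30 were called in RiboZero, PolyA and NoSelect. Over all rows tested, 3.46%, 4.03% and 2.17% were called, so the count is near that share. The single neighbour called was Gdpd2, a glycerophosphodiester phosphodiesterase gene 99.8 kilobases from Tex11. It stood at 0.96 (adjusted p 0.00407 in edgeR) in RiboZero, 0.72 (adjusted p 0.0109) in PolyA and 0.68 (adjusted p 0.0941) in NoSelect. The median over the neighbours was -0.002, 0.01 and 0.02.

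Genes whose level followed a member most closely from mouse to mouse were ranked after the genotype means were removed, by the smaller of the correlations in RiboZero and PolyA over 12 libraries each. For Tex11 these were Hltf (0.739), Znhit3 (0.699) and Trim23 (0.677). For Slc13a4 they were Smarcc2 (0.631), Fmo2 (0.626) and Sult1a1 (0.624), and for Gkn3 they included Serping1 (0.81) and Pla2g15 (0.74). For Crabp1 they included D2hgdh (0.762) and Fgfr4 (0.738), and for Snx31 Usp18 (0.699), Aptx (0.694) and Auh (0.676). They are from the top 3 of 13683 or 13684 rows compared over libraries that share mice and depth, so they describe these libraries only. Among the members themselves the closest pair was Crabp1 and Snx31, with 0.706 in RiboZero and 0.316 in PolyA, and KO mouse 6 is low in both. Other pairs reached at most 0.302 in the smaller of their correlations.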

How the data were processed

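Gene-level RNA-seq counts of 32 mouse lung libraries (12 mice, 6 groups) were used. The authors deposited 1 table of estimated counts with 41687 rows (37751 gene IDs, 3936 transcript IDs), of which 12.81% of values were not whole; the 160 member values were whole within 1e-06. Salmon 1.4.0, UMI-tools 1.1.1 and the GRCm38 build are named per the submitters' processing notes, without their roles. All 32 columns were matched by name.

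Counts were rounded and tested in R 4.3.3 with edgeR 4.0.16 (TMM, filterByExpr, quasi-likelihood, Benjamini-Hochberg, threshold 0.05), KO against WT within each preparation with genotype alone, and preparations pairwise with genotype as covariate. SEs belong to the fitted log2 fold changes. Medians, correlations, permutation tests and figures used Python 3.11.15. Intervals and floors (3 counts) cover counting error only, since PCR copies are not independent molecules. Chi-square per degree of freedom was 6.67 to 65.9 over 72 replicate pairs, so each library counted once. Libraries of 1 mouse correlated across preparations (0.487 to 0.807 over 15129 rows, after group means were removed), which sets the mouse as pairing; a number shared by WT and KO pairs no animals. The fits were tested on simulated data.

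Members and lists were chosen with earlier results of these data known. Genes of the pathway lists are named where they were called in at least 2 preparations with 1 sign. Papss2, Suox, Slc13a2, Slc13a3, Lrat, Sftpa1, Sftpd, Sftpc, Abca3, Edn1, Upk3a, Upk3b, Gja5, Snx17 and Snx27 were named after their values were seen. So were Crabp2, Gkn1, Gkn2, Tnp1, Prm1, Tex15, Rec8, Tex12, Syce3, Trf, Alb and Apoa1. Of the genes most like a member, 2 are not reported here. Alternatives were DESeq2 1.42.0, median-of-ratios factors, other filters, thinning, blocks, mice 3 to 6, 1 genotype alone, removal of Lars2 and Gm42418, and leaving out libraries.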

Additional observations from a re-analysis of the deposited data

Results flagged for a closer look

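In 2 of 30 sets of libraries examined (5 genes in 6 groups), 1 library stood apart from the others of its group; chance gives about 1 in 20. Slc13a4 in PolyA was 0.745 CPM in KO mouse 2, where its gap to the next KO library was 0.637 of the group's range, above the critical value of 0.625. Without this mouse the Slc13a4 log2 fold change in PolyA was -2.93. Crabp1 in NoSelect was 0.439 CPM in WT mouse 5, with a gap of 0.841 of the range against a critical value of 0.829. Without this mouse the Crabp1 log2 fold change in NoSelect was 3.50.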

How the results depend on the processing

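All KO differences of the members kept their sign in every alternative run, 257 of 262 values moving by less than 1 SD. The 5 that moved further were Tex11 in RiboZero (-5.82) and Slc13a4 in PolyA (-3.33) with mice 3 to 6 alone, Tex11 in NoSelect (-5.00) and Snx31 in RiboZero (3.52) after thinning to the smallest total, and Tex11 in NoSelect with 1 library left out (-4.95 to -4.09 over the 8). Fewer libraries or counts remain in each of these.

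Between preparations, Tex11 stayed without a call in PolyA against NoSelect and took the other sign in several alternatives, at -0.04 in DESeq2, -0.12 with WT alone, -0.02 with mice 3 to 6, -0.05 with these mice and the mouse block, -0.02 with the replicate block of mice, and between -0.06 and 0.19 with 1 mouse left out (-0.01 without WT 1 and WT 6, -0.05 without KO 3, -0.06 without KO 2). With WT alone Tex11 passed against RiboZero (-0.48). Slc13a4 passed in PolyA against RiboZero in DESeq2 (-0.48), with median-of-ratios factors (-0.47), WT alone (-0.58), mice 3 to 6 (-0.48, with block -0.46), thinning (-0.55) and the mouse block (-0.50), and ranged from -0.54 without KO 2 to -0.37 with 1 mouse left out, passing without KO 2 (-0.54) and KO 4 (-0.48). Against NoSelect it passed with WT alone (-0.61), the mouse block (-0.33, and -0.35 with mice 3 to 6), took the other sign with KO alone (0.14), and ranged from -0.48 (passing, without KO 2) to -0.22. In RiboZero against NoSelect it was -0.06 with WT alone, and Snx31 was -0.09 after thinning, neither passing. Gkn3 lost its call in PolyA against RiboZero with mice 3 to 6 (0.53), and against NoSelect with WT alone (0.52) or KO alone (0.68). Crabp1 passed in PolyA against RiboZero without the low-count filter (0.42), with the mouse block (0.40, and 0.42 with mice 3 to 6), and without KO 3, KO 6 or WT 5, in a range of 0.31 to 0.44. Against NoSelect it lost its call in DESeq2 (0.44), with median-of-ratios factors (0.42), mice 3 to 6 (0.42), WT alone (0.06) and KO alone (0.67), and with 11 of 12 mice left out in turn (0.36 to 0.60, passing without WT 5). The mouse block changed no other call of a member. Mice were left out 1 at a time in the fit with genotype only.

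The numbers of rows called between KO and WT were 579, 694 and 372 in RiboZero, PolyA and NoSelect. DESeq2 gave 976, 1355 and 878, and mice 3 to 6 gave 255 in RiboZero. With 1 library left out they ranged from 380 (without WT 5) to 644, from 442 (without KO 2; 457 without WT 5) to 1066 (without WT 2), and from 148 (without WT 5; 157 without WT 4, 158 without KO 5, 166 without KO 4, 210 without WT 6) to 472. A replicate block by mouse number gave 372 in RiboZero and 103 in NoSelect; equal numbers in WT and KO are different animals, whose deviations correlated by -0.177 to 0.275. RiboZero against NoSelect gave 5037 rows with WT alone and 4543 with KO alone, against 7873. The cause of these changes was not tested.

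Requiring 10 counts in every library left values for Crabp1 in PolyA and for Snx31 in PolyA and NoSelect only. Counts of called list genes moved in 66 of 275 alternatives. Depth limits Tex11 in KO most, where 8, 19 and 4 counts in all carry the estimates. The mouse block with mice 3 to 6 alone, leaving out each mouse between preparations, and group means on median-of-ratios factors were chosen after seeing the data.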
